A study of Caenorhabditis elegans with 2 samples.

Results

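The regions described here are peaks of a tagged zinc finger protein at genes of small nucleolar RNAs (snoRNAs) in Caenorhabditis elegans. A peak belonged to them when its summit, the deposited position of its maximum, lay within 200 bp of a gene that Ensembl release 115 annotates as snoRNA on the WBcel235 (ce11) genome. This rule found 135 members among the 21096 pooled peaks, which come from a call on both replicates together. Of these 135 peaks, 47 had as their nearest snoRNA a gene that lay whole inside a protein-coding host gene on the same strand. Another 66 belonged to snoRNA genes in no protein-coding gene, which have an upstream region of their own. The remaining peaks were at snoRNA genes inside a protein-coding gene of the other strand (antisense, 17 peaks) or partly inside one (overlapping, 5 peaks).

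The data came from chromatin immunoprecipitation with sequencing (ChIP-seq), which locates DNA bound by a protein, on whole first-stage (L1) larvae of mixed sex. All samples formed 1 group of 2 biological replicates of strain OP345, genotype unc-119(ed3) III; wgIs345. Its transgene supplies an eGFP fusion of C16A3.4, named znf-622 in the annotation, in worms that carry the unc-119 mutation. No untagged strain or other condition was analysed here, so no test over conditions exists and shares and medians are given as descriptions. Signals come from whole animals, so binding in fewer cells and weaker binding in each cell cannot be told apart. Read depth is not known, since the lists hold no counts.

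snoRNAs guide the chemical modification of other RNAs, mainly ribosomal RNA, inside protein complexes of the nucleolus. Box C/D snoRNAs guide ribose methylation, and box H/ACA snoRNAs guide the conversion of uridine to pseudouridine. Many animal snoRNAs lie in introns and are cut out of the host transcript, while others are transcribed from promoters of their own, and for worms intronic non-coding RNA genes with their own promoter elements have been described. RNA polymerase III reads tRNA genes through internal promoter elements, box A and box B, that lie downstream of the start of transcription. ZNF-622 has relatives in yeast and human that take part in late steps of making the large ribosomal subunit.

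The sequences under 8 summits show what DNA these peaks lie on. Each runs 5′ to 3′ on the strand of the snoRNA gene in the WBcel235 reference, is 201 bases long, and has the summit at base 101. On the chromosomes considered for printing, they are the 5 peaks of highest signal at snoRNA genes with their own upstream region that had no protein-coding 5′ end or tRNA gene within 1000 bp, and the 3 of highest signal at host-gene snoRNAs that lay more than 500 bp from every protein-coding 5′ end. Capitals mark a pair of box A letters (TGGCNNAGT) and box B letters (GTTCGANNC), each with at most 1 changed letter, in the 100 bp before the annotated 5′ end. In ZK994.7 they mark the words GNAACNCG and TGTCGG, which are common before small nuclear RNA (snRNA) genes, as described with the words.

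In the 5 windows at snoRNA genes with their own upstream region, the pair was found in F12F6.11 (chrIV:11549814-11550014, minus strand), F30H5.4 (chrIII:502685-502885, plus strand) and F32E10.10 (chrIV:7573968-7574168, plus strand). In C46C2.8 (chrIV:9191285-9191485, minus strand) and ZK643.9 (chrIII:8937625-8937825, plus strand) the search found neither the pair nor the snRNA-type words. The snoRNA itself began at base 151, 120, 155, 153 and 143 of these windows in that order.
F12F6.11: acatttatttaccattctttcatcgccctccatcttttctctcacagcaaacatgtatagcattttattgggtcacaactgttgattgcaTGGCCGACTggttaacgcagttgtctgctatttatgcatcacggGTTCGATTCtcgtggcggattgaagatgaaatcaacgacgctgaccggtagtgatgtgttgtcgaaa
F30H5.4: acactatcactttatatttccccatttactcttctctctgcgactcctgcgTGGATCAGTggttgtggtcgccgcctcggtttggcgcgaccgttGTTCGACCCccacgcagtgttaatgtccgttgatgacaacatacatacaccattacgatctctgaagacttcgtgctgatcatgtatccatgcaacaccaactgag
F32E10.10: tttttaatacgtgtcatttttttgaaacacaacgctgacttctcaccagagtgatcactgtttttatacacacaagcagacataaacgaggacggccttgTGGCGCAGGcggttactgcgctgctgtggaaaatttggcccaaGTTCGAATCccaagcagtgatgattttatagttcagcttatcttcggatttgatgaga
C46C2.8: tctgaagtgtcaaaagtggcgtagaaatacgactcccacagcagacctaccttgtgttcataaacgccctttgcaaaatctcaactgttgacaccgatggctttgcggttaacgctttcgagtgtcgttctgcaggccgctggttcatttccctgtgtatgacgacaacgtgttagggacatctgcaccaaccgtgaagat
ZK643.9: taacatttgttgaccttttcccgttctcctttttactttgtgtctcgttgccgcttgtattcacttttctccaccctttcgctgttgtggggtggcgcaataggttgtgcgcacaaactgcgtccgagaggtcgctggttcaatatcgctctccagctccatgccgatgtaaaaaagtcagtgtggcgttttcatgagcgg

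The other 3 windows had their summits in introns of protein-coding genes. Y38F2AR.14 (chrIV:2408570-2408770, minus strand) lies in Y38F2AR.12, ZK994.7 (chrV:8500454-8500654, plus strand) in pxn-1, which encodes a peroxidasin of the extracellular matrix, and M106.6 (chrII:10840189-10840389, plus strand) in mix-1, which encodes a condensin subunit. The snoRNAs began at base 136, 126 and 129. In Y38F2AR.14 a box A match began 50 bp and a box B match 5 bp before the annotated 5′ end, so box B ran past the end of the searched stretch and carries no capitals.
Y38F2AR.14: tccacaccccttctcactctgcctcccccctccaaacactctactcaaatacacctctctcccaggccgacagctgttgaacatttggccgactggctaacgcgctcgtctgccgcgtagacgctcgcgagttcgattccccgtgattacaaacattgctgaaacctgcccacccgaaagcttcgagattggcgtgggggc
ZK994.7: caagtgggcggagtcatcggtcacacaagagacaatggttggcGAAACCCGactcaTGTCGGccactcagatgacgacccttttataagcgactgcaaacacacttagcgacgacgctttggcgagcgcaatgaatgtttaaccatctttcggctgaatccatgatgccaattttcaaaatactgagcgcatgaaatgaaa
M106.6: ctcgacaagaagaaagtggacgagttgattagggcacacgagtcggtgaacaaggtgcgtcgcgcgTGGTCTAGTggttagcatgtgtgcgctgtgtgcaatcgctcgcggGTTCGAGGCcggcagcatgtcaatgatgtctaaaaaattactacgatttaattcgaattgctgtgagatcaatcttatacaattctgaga

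The peaks were strong for their list. Their median signal, the authors' value for each peak on a scale that is not stated, was 62.9 (quartiles 26.1 to 131, range 14.1 to 271), against 19.6 for the 20961 other pooled peaks. Of the 135 peaks, 80 (59.3%, Wilson 95% interval 50.8 to 67.2) were also in the authors' thresholded list, which holds 15.3% of all pooled peaks. That list equals the 3220 pooled peaks of highest signal, with 48.4 as its lowest value, so membership and signal are the same measure. Within it the snoRNA peaks had a median of 121 and the other 3140 peaks 84.0. The windows of 200 bp around all snoRNA genes cover 182 kb, or 0.182% of the genome, and held 0.640% of pooled and 2.48% of thresholded summits.

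Signals of peaks at host-gene snoRNAs and at snoRNAs with their own upstream region overlapped over most of their range. The median signal was 74.0 (quartiles 21.9 to 124, n = 47) in host genes and 58.6 (29.5 to 119, n = 66) with an upstream region of their own. Which class had the higher median depended on the setting: among peaks in no protein-coding promoter window it was 54.0 (n = 38) in host genes and 55.6 (n = 40) with their own upstream region, and with peak regions in place of summits 48.2 and 48.4. By replicate 1's own signals at the peaks matched in it, the medians were 36.2 (n = 33) in host genes and 34.5 (n = 47) with their own upstream region. Replicate 2's own signals gave 52.6 (n = 43) and 44.2 (n = 58). Antisense peaks had a median of 52.8 (n = 17) and overlapping ones 137 (n = 5). The share in the thresholded list was 59.6% (28 of 47, interval 45.3 to 72.4) in host genes, 59.1% (39 of 66, 47.0 to 70.1) with their own upstream region and 52.9% (9 of 17, 31.0 to 73.8) antisense. The plot of pooled signal by class shows that values within each of these 3 classes spread across the threshold.

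**Figure D1:**
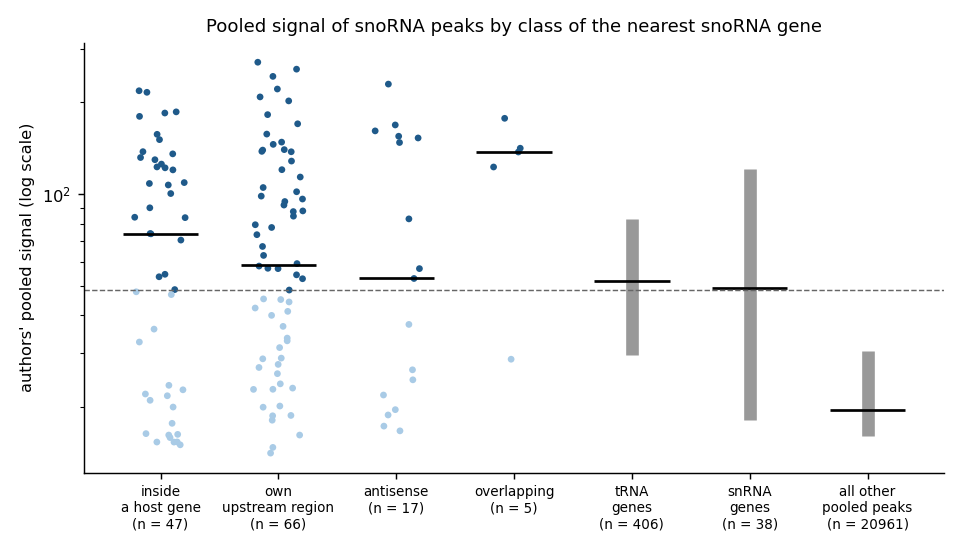
Authors' pooled signal (log scale) of the 135 snoRNA peaks by class of the nearest snoRNA gene, with dark points for peaks in the thresholded list, light points for the other peaks and black lines for medians. Grey bars give the quartiles of peaks at tRNA genes (median 51.8), at snRNA genes (median 49.1) and of all other pooled peaks (median 19.6), and the dashed line marks the lowest thresholded signal, 48.4.

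Other peaks near RNA genes served as a reference. Of 406 pooled peaks within 200 bp of a tRNA gene and of no snoRNA gene, 53.0% were thresholded, with a median signal of 51.8. The 38 peaks at snRNA genes had 52.6% and 49.1. Pooled peaks in the promoter windows of protein-coding genes (1000 bp upstream to 200 bp downstream of the 5′ end), snoRNA peaks left out, had 28.7% and 24.5. These groups differed in repeated sequence. In 126 of the 135 snoRNA windows of 201 bases (93.3%), all 32-base words occurred once in the genome. This held for 8.13% of the tRNA windows and 39.5% of the snRNA windows. It also held for 91.9% of windows at all other pooled peaks and 89.2% at other thresholded peaks. The snoRNA windows had a median of 48.3% G and C, against 37.8% at other pooled peaks and 41.8% at other thresholded peaks. The part of base composition in the signals was not tested.

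The strongest peaks with their own upstream region lay close to protein-coding promoters as well. Y53F4B.47 had a pooled signal of 271, with 117 in replicate 1 and 152 in replicate 2, and its summit at chrII:15025976 lay 83 bp upstream of the snoRNA and 138 bp from the 5′ end of cmtr-1. F59C6.15 had 257 (110 and 143 in the replicates), 90 bp upstream of the snoRNA. F09G2.14 had 243 (84.3 and 161), 79 bp upstream. In all 3, replicate 2 had the higher value. The next were D2021.6 (pooled signal 221, beside sdha-1, a subunit of succinate dehydrogenase), Y53F4B.48 (208), M7.15 (202) and K02C4.8 (182). All 7 summits lay in the promoter window of at least 1 protein-coding gene, so these peaks cannot be assigned to the snoRNA alone.

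Away from such windows the peaks had a lower median signal and a share of thresholded peaks within the counting error of the others. Of the 66 peaks, 26 lay in a protein-coding promoter window (median signal 88.1, 61.5% thresholded) and 40 did not (55.6, 57.5%), with overlapping Wilson intervals of 42.5 to 77.6 and 42.2 to 71.5. The share in such a window, 39.4%, was 32.6% over all other pooled peaks. Among thresholded peaks it was 41.0% with an own upstream region and 62.3% away from snoRNA genes. The strongest of the 40 was F12F6.11, with a pooled signal of 170 and replicate signals of 51.0 and 119, 1143 bp from the nearest protein-coding 5′ end. F30H5.4 had 146 (51.0 and 91.5), 9432 bp from the nearest such end. F32E10.10 had 140 (50.1 and 93.2) at its upstream summit, and a weak peak of 16.2 with no match in either replicate list at its other summit. The remaining members of the 12 strongest, C36E8.11 beside tif-1A (pooled signal 157) and C41C4.11 (148), lay in promoter windows.

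In the host-gene class most peaks were far from the host's promoter. Of the 47 summits, 38 lay in no protein-coding promoter window, and the median distance from the host's 5′ end was 2527 bp (range −46 to 16043, negative upstream). Introns of the host held 37 summits, exons held 9, and 1 lay just before the host. The 28 thresholded ones included 26 in introns and 1 in an exon, C14C10.8 in ril-2 with a signal of 109. The other 8 exonic summits had signals of 15.4 to 23.6, among them Y43B11AR.7 in rps-4, a ribosomal protein gene, F17C11.15 in eef-1G, an elongation factor subunit, and C50C3.14 in prp-8, a core splicing factor. Thus 8 of 19 host-gene peaks outside the thresholded list were exonic, against 1 of 28 inside it.

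The strongest host-gene peak was F39B2.14 at tmem-107, a gene of the ciliary transition zone, with a pooled signal of 218 (79.9 in replicate 1 and 133 in replicate 2). Its summit was 107 bp upstream of the snoRNA and 46 bp upstream of the host's own 5′ end, so host promoter and snoRNA upstream region coincide there. The summit also lay in the promoter window of rps-26, a ribosomal protein gene, so the peak cannot be assigned to 1 of these genes. T08B2.13 in fars-1, a subunit gene of phenylalanyl-tRNA synthetase, had 216 (87.5 and 129), 30 bp upstream of the snoRNA and 1831 bp into the host, although 969 bp from the 5′ end of mrpl-23. By group, the 9 host-gene peaks in a promoter window had a median signal of 109 (77.8% thresholded) and the 38 others 54.0 (55.3%). The 3 strongest of the 38 lay deep inside their hosts. Y38F2AR.14 had 186 (62.4 and 121), 3750 bp into Y38F2AR.12. ZK994.7 had 184 (88.8 and 99.9), 5665 bp into pxn-1. M106.6 had 180 (71.9 and 107), 16043 bp into mix-1.

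A further 6 of the 12 strongest host-gene peaks had signals between 125 and 157. The 6 were at C10C6.8 in catp-8 (a P-type ATPase gene), F55A11.10 in F55A11.6, T24H7.6 in T24H7.2, C51F7.4 in frm-7, D1046.6 in cfim-2 (a pre-mRNA cleavage factor subunit) and W08G11.6 in W08G11.3. In each of the 6, replicate 2 had the higher signal, from 83.9 to 104 against 33.0 to 49.7 in replicate 1. Of these 6, F55A11.10 lay in a protein-coding promoter window. The summit at C51F7.4 was also within 200 bp of C51F7.3, another snoRNA gene in frm-7. It cannot be assigned to 1 of them, and in counts by gene it counts for both.

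The 4 strongest antisense peaks are named here, in a class with a median signal of 52.8. ZK484.9, inside haf-9, a half-molecule ABC transporter gene of the other strand, had a pooled signal of 229 with 112 and 119 in replicates 1 and 2. C04G6.12 in mpk-2, a MAP kinase gene, had 169 (65.4 and 98.7), C27H5.9 in pdl-1 161 (61.3 and 93.9), and B0334.12 in twk-5, a potassium channel gene, 155 (59.3 and 93.8). The last had its summit 106 bp downstream of the snoRNA's 5′ end, and the others lay 20 to 58 bp upstream. The overlapping snoRNAs T27A3.9 (pooled signal 177), T02E1.9 (141), W01C9.6 (137) and T23G11.12 (123) all had thresholded peaks. The remaining overlapping peak, at F20D12.10 (28.7), was not thresholded. The summits at T02E1.9, T23G11.12 and F20D12.10 lay in protein-coding promoter windows, so they cannot be assigned to the snoRNA alone.

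Summits lay mostly just upstream of the snoRNA. The median position from the annotated 5′ end was −29 bp (quartiles −53 to 15.5, negative upstream), and it was −29 bp in host genes, −29.5 bp with their own upstream region and −27 bp antisense. Of all 135 summits, 85 (63.0%) were in the 100 bp before the 5′ end, a stretch that makes up 18.8% of the length of the windows searched. Thresholded peaks were placed more tightly, with a median of −37.5 bp (quartiles −55.75 to −23.25), 73 of 80 upstream and 67 (83.8%) in those 100 bp. The other 55 peaks had a median of 17 bp, and 18 of them (32.7%) lay there. The same split held in both main classes: 25 of 28 thresholded host-gene summits and 32 of 39 thresholded summits with their own upstream region lay in the 100 bp, against 7 of 19 and 8 of 27 of the weaker ones.

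In bins of 50 bp around all snoRNA 5′ ends, the bin from −50 to −1 held 59 summits, 48 of them thresholded, and the bin from −100 to −51 held 27, 20 of them thresholded. Bins more than 500 bp away held a median of 6 summits (range 2 to 12), with a median of 2 thresholded ones (0 to 5). The bin from 0 to 49 held 9. Position is limited by the deposited summits: in 121 of the 135 peaks the summit was the exact centre of the region, most regions being 344 bp wide. The 14 narrower regions were all thresholded.

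**Figure D2:**
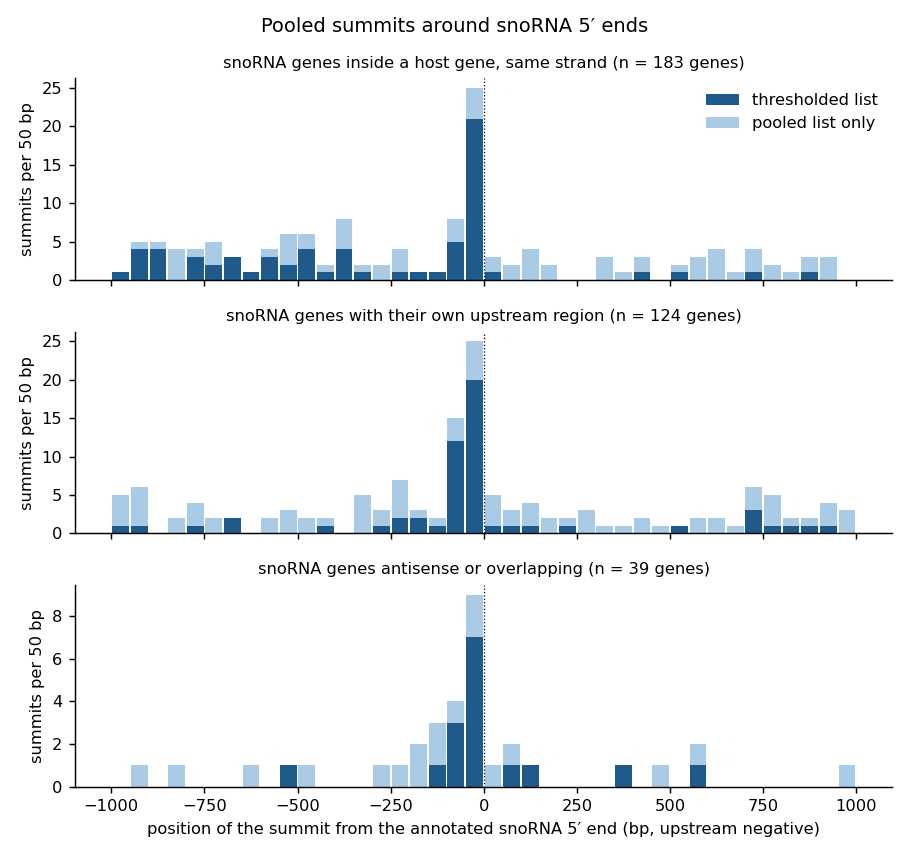
Number of pooled summits per 50 bp bin by position from the annotated 5′ end of snoRNA genes (bp, upstream negative), stacked as thresholded (dark) and pooled list only (light), for 183 host-gene, 124 own-upstream and 39 antisense or overlapping genes. In each panel the tallest bin is the one from −50 to −1.

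The limit of 200 bp left few peaks at its edge. The members farthest from a snoRNA gene were C50C3.14 (200 bp, pooled signal 15.4), F17C11.15 (194 bp, 16.4) and B0379.13 (193 bp, 52.7). The next outside were at F37F2.4 (201 bp, 52.4), C24A1.8 (205 bp, 19.2) and B0348.8 (212 bp, 19.4). No member lay within 200 bp of a tRNA gene, and 32 lay that close to a gene annotated only as ncRNA. Exactly 8 snoRNA genes had 2 member peaks, and no more than 1 of each pair was thresholded. At B0379.13 the signals were 52.7 upstream and 23.1 inside the gene, and at C34E11.20 they were 27.6 upstream and 14.7 inside. The signals were 24.6 and 18.8 at C32F10.9 and 22.8 and 21.0 at C41C4.16 in ulp-4. Of these 4 genes, B0379.13 had a thresholded peak.

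Agreement of the replicates followed the signal. A peak was matched when a replicate's own list had a summit within 100 bp. Of the 135 peaks, 90 (66.7%, interval 58.4 to 74.1) were matched in both replicates, against 34.1% of all pooled peaks. This was 77 of the 80 thresholded peaks and 13 of the other 55. Neither replicate list matched 8 peaks, none of them thresholded, with signals up to 36.8 (F37A8.7). Replicate 2 had more matches (120) than replicate 1 (97).

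At the 90 peaks matched in both, replicate 2 had the higher signal in 84. The median was 38.7 in replicate 1 and 69.1 in replicate 2, and the median ratio was 1.72 (quartiles 1.33 to 2.15). The ratio was 1.18 at other pooled peaks and, within the thresholded list, 1.79 at snoRNA peaks against 1.45 at other peaks. Whether the replicates' scales or depths differ is unknown. The highest ratios were at Y74C9A.6 (12.8 in replicate 1, 75.5 in replicate 2, ratio 5.88) and Y67A10A.14 (7.81 and 45.1, ratio 5.77). The lowest were at T19B4.8 (76.4 and 45.1, ratio 0.590) and K11D9.10 (14.5 and 9.14, ratio 0.632). By class the median ratio was 1.87 in host genes, 1.74 with their own upstream region and 1.57 antisense.

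**Figure D3:**
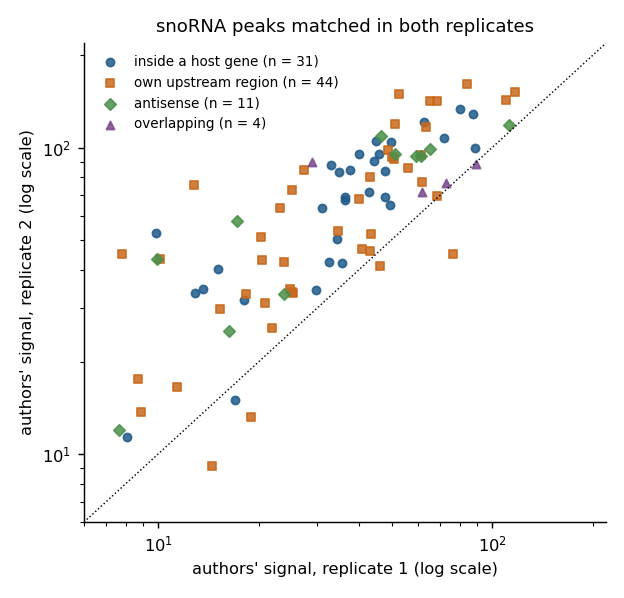
Authors' signal in replicate 2 against replicate 1 (both on log scales) for the 90 snoRNA peaks matched in both replicate lists within 100 bp, with symbols by class. The dotted line marks equal values, and 84 of the 90 points lie above it.

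Counted by gene, 128 of the 346 snoRNA genes (37.0%, interval 32.1 to 42.2) had a pooled summit within 200 bp, and 218 had none. Of all 46890 annotated genes 26.8% had such a summit, but genes differ in length, and snoRNA genes are short (median 130 bp). Within 200 bp of the 5′ end alone, which does not depend on length, the share was 34.7% for snoRNA genes (29.9 to 39.8) and 14.2% for all genes, with 67.0% for tRNA, 23.3% for snRNA, 18.8% for microRNA and 16.8% for protein-coding genes. It was 21.8% for genes annotated only as ncRNA. All genes include 15363 annotated as piRNA (median length 21 bp), whose share of 5.60% lowers the value for all genes. Thresholded summits lay within 200 bp of 81 snoRNA genes (23.4%), against 6.58% of all genes. By type this was 37.3% of tRNA, 10.3% of protein-coding, 7.97% of ncRNA and 0.221% of piRNA genes.

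Host-gene snoRNAs had summits less often than those with their own upstream region. A pooled summit was found at 47 of 183 host-gene snoRNAs (25.7%, interval 19.9 to 32.5), at 60 of 124 with their own upstream region (48.4%, 39.8 to 57.1), at 16 of 33 antisense ones (48.5%, 32.5 to 64.8) and at 5 of 6 overlapping ones. Thresholded summits were at 15.8%, 31.5%, 27.3% and 66.7% of these genes. The intervals of the host-gene and own-upstream classes do not overlap on either list. They cover counting error only, and neighbouring genes are not independent. Protein-coding promoter windows held 26 of the 66 peaks with their own upstream region (39.4%) and 9 of the 47 host-gene peaks (19.1%). They held 32.6% of all other pooled peaks. The peaks outside such windows were nearest to 35 of the 124 own-upstream genes and 37 of the 183 host-gene snoRNAs. The part of nearby protein-coding promoters in the difference was not tested.

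A peak at the host's promoter, snoRNA peaks left out, did not go with more peaks at the snoRNA inside it. A host such as tmem-107, whose promoter summit is the snoRNA peak F39B2.14, thus counted as having none. Such cases add a snoRNA peak to the hosts without a promoter peak, in the direction of the result. Among host-gene snoRNAs whose host had a thresholded summit in its promoter window, 14 of 77 (18.2%, interval 11.2 to 28.2) had a pooled summit of their own and 6 (7.79%) a thresholded one. Where the host had none, these were 33 of 106 (31.1%, 23.1 to 40.5) and 23 (21.7%), and the intervals of the pooled shares overlap. With host promoter peaks taken from the pooled list, the pooled shares were 23.7% of 118 and 29.2% of 65, again with overlapping intervals. The hosts numbered 156, of which 45 had a snoRNA peak and 13 were cytosolic ribosomal protein genes. In ribosomal protein genes 1 of 19 snoRNAs had a pooled summit (5.26%, interval 0.935 to 24.6) and none a thresholded one, against 46 of 164 (28.0%, 21.7 to 35.4) and 29 in other hosts. The host with most snoRNA genes, nol-56, has a thresholded promoter peak itself and carries 4 snoRNAs, none with a summit within 200 bp.

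**Figure D4:**
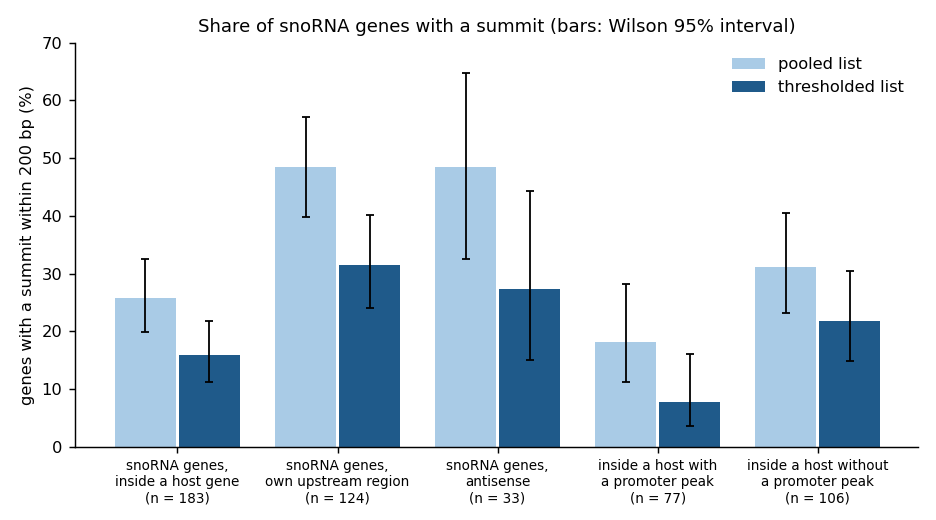
Share (%) of snoRNA genes with a summit within 200 bp of the gene in the pooled (light) and thresholded (dark) list, with Wilson 95% intervals, for 3 classes and for host-gene snoRNAs split by a thresholded promoter peak of the host, snoRNA peaks left out. Host-gene snoRNAs (25.7% pooled) lie below those with their own upstream region (48.4%), and those in hosts with a promoter peak are at 18.2%.

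The kind of snoRNA could be read from letters in only some genes. Box C and D letters (TGATGA in the first 25 bases and CTGA in the last 25) were found in 15 of 346 genes, ACA followed by exactly 3 bases in 58, and neither in 273. A pooled summit lay near 10 of the 15 with box C and D letters (66.7%, interval 41.7 to 84.8), 23 of the 58 with ACA letters (39.7%, 28.1 to 52.5) and 95 of the 273 others (34.8%, 29.4 to 40.6). By chromosome the share ran from 5 of 33 genes on X (15.2%, 6.65 to 30.9), with 1 thresholded, to 33 of 71 on II (46.5%). Genes whose span and 100 bp to each side held only 32-base words that occur once in the genome had a pooled summit in 116 of 288 cases (40.3%), and the others in 12 of 58 (20.7%).

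The DNA before snoRNA genes with peaks shared words that the rule did not use. The box A and box B letters were part of the planned search around summits, but their search before 5′ ends was added after seeing the data. GNAACNCG and TGTCGG were chosen after reading the sequences before snoRNA genes with thresholded peaks, the genes counted below. The difference between genes with and without a peak is therefore in part fixed by these choices. A match is a description of letters, not a site. A box A and box B pair, with starts 30 to 60 bp apart on the sense strand, was found in the 100 bp before 26 of the 81 snoRNA genes with a thresholded summit (32.1%, interval 22.9 to 42.9), 4 of 47 with a pooled summit only and 1 of 218 with none (0.459%, 0.0810 to 2.55). It was found before 20 of 19973 protein-coding genes (0.100%), none of 129 snRNA genes and none of 612 tRNA genes, whose own boxes lie inside the gene. The median start was −58.5 bp for box A and −14 bp for box B, as in F12F6.11 (−60 and −16) and M106.6 (−62 and −17) printed above.

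In host genes the pair preceded 14 of 29 snoRNAs with a thresholded summit (48.3%, interval 31.4 to 65.6) and 0 of 136 with no summit (upper bound 2.75%). With their own upstream region these were 8 of 39 (20.5%) and 1 of 64, and it preceded 4 of 9 antisense snoRNAs with a thresholded summit. With no changed letter allowed, box A letters alone preceded 13 of the 81 genes with a thresholded summit and 4 of the 218 with none, and box B letters 14 and 2. Counted on both strands the strict box A counts were the same, 13 and 4, and those of box B were 14 and 3.

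Another set of words was shared with snRNA genes, which have external promoters. GNAACNCG or TGTCGG stood on the sense strand in the 100 bp before 70 of 129 snRNA genes (54.3%), many of which are near-identical copies, and before 1.65% of protein-coding genes. Of snoRNA genes they preceded 21 of 81 with a thresholded summit (25.9%), 7 of 47 with a pooled summit only and 18 of 218 with none (8.26%). In host genes these were 9 of 29 with a thresholded summit and 4 of 136 with none. With their own upstream region they were 10 of 39 (25.6%) and 10 of 64 (15.6%). The median starts, −60 bp for GNAACNCG and −47 bp for TGTCGG, were equal before snRNA genes and before snoRNA genes with a thresholded summit. They were the same before snoRNA genes with a pooled summit only, and −61.5 and −49.5 bp before those with none. On either strand GNAACNCG preceded 30.9% and TGTCGG 17.3% of the latter genes, and 2.30% and 1.68% of protein-coding genes. The word GGCGCA, whose letters can overlap those of box A, preceded 22.2% of snoRNA genes with a thresholded summit and 1.83% of those with none on the sense strand.

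Of the 81 genes with a thresholded summit, 22 had the pair alone, 17 an snRNA-type word alone, 4 both and 38 neither. The search stopped at the annotated 5′ end, so a pair that ran past it, as at Y38F2AR.14, counted as neither. Peaks whose nearest gene had the pair alone had a median signal of 120 (n = 27, 22 thresholded), those with an snRNA-type word alone 56.9 (n = 25, 17 thresholded) and those with neither 40.6 (n = 78, 37 thresholded). The upstream search was added, and the snRNA-type words were read, with the genes with thresholded peaks, those of highest signal, in view. These differences are therefore also in part fixed by that choice. Of the 78 with neither, 27 lay in a protein-coding promoter window, as did 32.6% of pooled peaks not at snoRNA genes. The strongest of all, Y53F4B.47 and F59C6.15, were at genes with snRNA-type words, but both summits lay in protein-coding promoter windows. The next strongest, F09G2.14, had neither the pair nor these words.

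**Figure D5:**
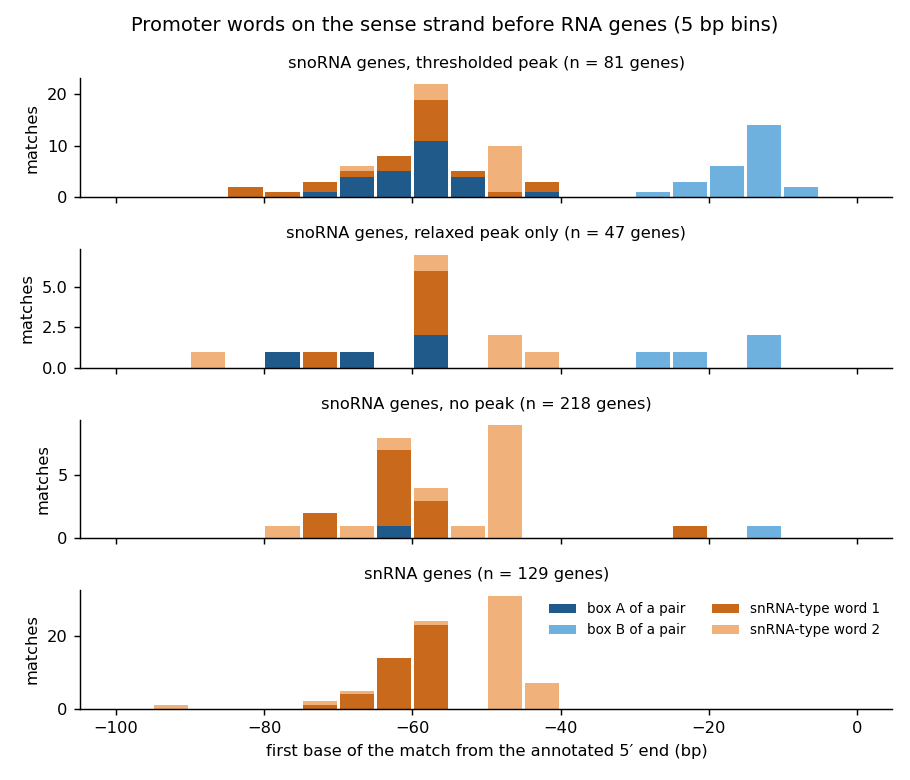
Number of matches per 5 bp bin by position of their first base from the annotated 5′ end (bp), on the sense strand, for box A and box B of a pair and for GNAACNCG (word 1) and TGTCGG (word 2), before snoRNA genes by peak status and before snRNA genes. In the top panel box A and word 1 gather around −60, word 2 around −47 and box B around −14, and a pair precedes 26, 4 and 1 genes in the 3 snoRNA panels.

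Around the summits themselves, within 100 bp on either strand, box B letters without changes were found at 13.3% of snoRNA peaks (interval 8.60 to 20.1) and 2.84% of other pooled peaks, and box A letters at 13.3% and 2.20%. Nearly all of these, 17 of 18 peaks with box B and 16 of 18 with box A, were thresholded. Among peaks at tRNA genes 268 of 406 had the box B letters. Within the thresholded list, 17 of 80 snoRNA peaks and 5.67% of other peaks had the box B letters, and 16 of 80 and 2.99% the box A letters. The E-box letters CACGTG were at 4.44% of snoRNA peaks and 5.62% of other pooled peaks. GAGAGA was at 28.1% and 21.7%, but within the thresholded list the order turned, with 32.5% of snoRNA peaks and 39.1% of others.

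Genes of the proteins that work with snoRNAs carried peaks at their promoters. All 11 listed genes of snoRNA-protein complexes had a thresholded summit in the promoter window, which 13.7% of protein-coding genes had. The list was drawn up with earlier results of these data known, so its count is a description. The highest signal was at fib-1, which encodes fibrillarin, the methyltransferase of box C/D complexes (pooled signal 271, with 115 and 155 in replicates 1 and 2). The scaffold genes nol-56 and nol-58 had 177 and 178, and snu-13, for the protein that binds the box C/D RNA, had 98.2. Among H/ACA genes, nola-3 had 228 (109 and 123), Y48A6B.3 224, dkc-1, the pseudouridine synthase, 94.3 (25.1 and 65.8) and garr-1 88.0. The ATPase genes ruvb-1 and ruvb-2, which act in assembly, had 78.7 and 211, and dao-5 139. In each of the 11 genes replicate 2 had the higher signal.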

How the data were processed

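Peak lists of 2 replicates were used on the ce11 build. Per the notes deposited beside the lists, peaks were called on each replicate's alignments and on both together, each with a control, and the thresholded list was derived by the irreproducible discovery rate (IDR), which measures how consistently peaks rank between replicates. The aligner, the peak caller and their versions are not stated in any source used here. Each peak has the authors' deposited signal, on a scale not stated and treated as comparable within a list, a deposited −log10 q value and a deposited summit offset. The highest −log10 q value was 3.84 and was shared by 82 snoRNA peaks, so peaks were ranked by signal. Signals of different lists were compared as though their scales were equal. The replicate lists hold 30000 peaks each, background included. Depth per sample is unknown.

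Summits were placed on WBcel235 with Ensembl release 115 (46890 genes on 6 chromosomes) and its reference sequence, in Python 3.11.15 with numpy 2.4.6, pandas 2.3.3, scipy 1.17.1 and matplotlib 3.10.9. Summits of replicates were matched within 100 bp. Wilson 95% intervals cover counting error only. The placing, matching and word searches were tested on simulated data. Peaks were named by rule: the 12 strongest host-gene and own-upstream ones, the 4 strongest antisense and overlapping ones, the 3 members at the 200 bp limit with the 3 next outside, the 2 highest and 2 lowest replicate ratios, 4 genes with 2 peaks, and the snoRNA-protein genes. Of the 12 host-gene peaks, 1 is not reported here. C14C10.8, Y43B11AR.7, F20D12.10, F37A8.7, C51F7.3 and the host nol-56 were named after their values were seen. The members and lists were chosen with earlier results of these data known. Alternatives were other distances, peak regions, the thresholded list, each replicate's own peaks (as many as the pooled list holds), either-strand hosts and other word windows. The upstream words, the host promoter split by the pooled list and the setting of windows with only once-occurring words were added after seeing the data. Peaks on chromosome I were not considered for printing of sequence. Lists on ce10 and the control itself were not analysed here.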

Additional observations from a re-analysis of the deposited data

How the results depend on the processing

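Under the alternative settings 56 values stayed within the interval, or for counts within 1.5 times, of the reported one and 11 moved, but these intervals are wide, and the order of the host-gene and own-upstream classes turned under some settings. Their median signals (74.0 and 58.6) were 54.0 and 55.6 outside promoter windows and 48.2 and 48.4 with peak regions. Their thresholded shares (59.6% and 59.1%) were 61.9% and 64.3% with a limit of 100 bp and 55.3% and 57.5% outside promoter windows, and with peak regions the own-upstream share (50.6%) was also the higher one. The 135 peaks became 80 in the thresholded list and 203 with a limit of 500 bp. Leaving out a replicate gave 107 to 141. The share of snoRNA genes with a summit (37.0%) was 23.4% in the thresholded list, 52.3% with a limit of 500 bp and 46.0% with peak regions in place of summits, and it ran from 29.8% without replicate 2 to 40.5% without replicate 1. The host-gene share of peaks (34.8%) was 51.1% when overlap on either strand counted, which by construction takes in the antisense and overlapping peaks. The median signal with an own upstream region (58.6) was 44.2 without replicate 1 and 34.5 without replicate 2. That of host genes (74.0) was 52.6 and 36.2. These are medians of the remaining replicate's own signals, taken only at peaks matched in it. Most of these signals were lower than the pooled one at the same peak, though not that of F48A9.6 (17.7 pooled, 23.8 in replicate 2). Peaks matched in both replicates (66.7%) were 54.1% within 50 bp and 75.6% within 200 bp, a direct effect of the distance. For the other values that moved the cause was not tested. No paired analysis was possible because there is 1 group and no comparison between groups. Unknown depth, an unstated signal scale and summits set at region centres limit how finely strength and position can be read.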
